A study of Rattus norvegicus with 9 samples.

Results

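The core circadian clock was followed in 10 genes, taken by their exact names from tables that list 32883 genes: Arntl (which encodes BMAL1), Clock, Per1, Per2, Per3, Cry1, Cry2, Nr1d1, Nr1d2 and Dbp. Each was listed once in each group's table, and all 10 passed the filter on low values, which asks that 1 group or more average 1 or above. RNA came from adipose tissue of male Wistar rats. The study's methods call it retroperitoneal. Each group had 3 libraries. BB rats were fed a high fat diet, were injected once with streptozotocin (25 mg/kg), a toxin of the pancreatic beta cells, and received black bean extract by gavage (260 mg/kg/day for 31 days). DB rats had the same diet and streptozotocin (25 mg/kg) with water in place of the extract, and HE rats had a standard diet and an injection of buffer. The rats were kept in a light and dark cycle, and the hour at which tissue was taken is not given in the sources used here. Ages are not given either. Diabetes in this model combines the diet with the toxin, and the methods mention gavage for BB and DB rats only. In comparisons with HE the shares of diet, toxin and gavage cannot be told apart. The question for these genes was whether their transcript levels differed between the groups.

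The clock is a feedback loop of transcription factors that turns over about once a day in most tissues, fat included. CLOCK and BMAL1 bind E-box elements and drive the Per and Cry genes, whose proteins return to the nucleus and block that activity. They also drive Nr1d1 and Nr1d2, which encode the nuclear receptors REV-ERB alpha and beta. These repress Arntl through the elements that ROR receptors activate. DBP acts on D-box elements in an output arm. In rodent tissues Arntl is high when Dbp, Nr1d1 and the Per genes are low, and Dbp swings widely over the day.

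The promoters of Arntl, Per2 and Nr1d1 are shown because each holds a matching element from a different link of the loop. The sequences are RefSeq promoter windows of the rat assembly GRCr8 (250 bases before to 50 bases after a gene's start) with matches in capitals, printed 5′ to 3′. Arntl lies at chr1:176766078-176766377, plus strand, Per2 at chr9:99496944-99497243, minus strand, and the downstream one of the 2 Nr1d1 windows at chr10:84229405-84229704, minus strand.
Arntl: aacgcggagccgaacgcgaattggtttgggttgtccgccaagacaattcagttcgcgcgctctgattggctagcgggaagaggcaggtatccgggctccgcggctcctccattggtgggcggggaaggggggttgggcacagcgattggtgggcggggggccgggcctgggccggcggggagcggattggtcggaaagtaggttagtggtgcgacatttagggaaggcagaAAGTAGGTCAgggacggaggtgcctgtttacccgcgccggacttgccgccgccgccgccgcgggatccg
Per2: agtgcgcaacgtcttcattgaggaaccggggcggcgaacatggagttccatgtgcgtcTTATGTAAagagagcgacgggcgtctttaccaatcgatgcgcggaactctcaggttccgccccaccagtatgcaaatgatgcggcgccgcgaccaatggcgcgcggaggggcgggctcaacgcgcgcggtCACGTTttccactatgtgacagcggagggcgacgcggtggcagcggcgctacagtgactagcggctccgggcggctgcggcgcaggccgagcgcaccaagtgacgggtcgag
Nr1d1: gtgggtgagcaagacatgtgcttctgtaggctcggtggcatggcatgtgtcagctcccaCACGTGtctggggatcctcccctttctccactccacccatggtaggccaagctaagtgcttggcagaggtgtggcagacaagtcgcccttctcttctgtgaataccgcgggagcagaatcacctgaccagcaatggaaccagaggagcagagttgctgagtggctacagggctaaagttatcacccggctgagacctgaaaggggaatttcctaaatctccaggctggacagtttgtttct
In Arntl the capitals mark a ROR and REV-ERB element (an A, any 2 bases, then TAGGTCA), which begins 19 bases before the start. In Per2 they mark a D-box (TTATGTAA) 192 bases and an E-box variant (CACGTT) 62 bases before it, and in Nr1d1 an E-box (CACGTG) 191 bases before it. Both strands of 11 windows were searched for these letters and for the D-box TTACGTAA. They cover 9 of the 10 genes, with no entry for Cry1. The E-box, the D-box and the ROR element were each found in 1 gene, and the E-box variant in 3 (Per2, Cry2 and the upstream Nr1d1 window). Of 33469 promoter windows of rat genes, 6.42% hold the E-box, 1.01% a D-box, 0.687% the ROR element and 4.83% the E-box variant. A match is a description of these letters and not evidence of binding.

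The values are read counts divided by 1 factor per library, called normalised read counts here, and are not corrected for gene length, so levels are compared between libraries and not between genes. Depth was 2771967 to 3542749 reads in 8 libraries, in which 1 read stands for 0.672 to 0.913. BB replicate 8 stood apart. It held 12267084 reads, of which 76.5% fell on 10 genes, and 1 read in it stands for 14.6. No reads were found in it for 47.4% of the genes, beside 1.92% to 2.72% in the other 8 libraries. Nearly all listed genes thus had reads in each of those 8, and what part of these reads is background was not tested. The log2 values of BB replicate 8 over all genes had r = 0.577 to 0.594 with the other libraries, which had 0.961 to 0.969 among themselves. It was kept out of the comparisons, and its clock gene values are given apart. The columns end in a letter code that differs from the sample titles, and neither code is explained, so markers of tissues were looked at. All 12 adipocyte markers had reads in the 8 libraries, with a median at the 73.1st percentile of all genes by mean value. Adiponectin (Adipoq) had 58.4 to 71.2, and the fatty acid binding protein Fabp4 had 8.10 to 14.6. The median percentile was 79.7 for 12 hepatocyte genes, 87.0 for 8 macrophage and lymphocyte genes, 93.6 for 5 endothelial genes, 63.9 for 6 neuron genes and 46.4 for 5 skeletal muscle genes. Single genes ran from 28.5 (Fabp4) to 94.6 (Lep) among adipocyte markers and from 48.9 (Tubb3) to 91.4 (Syt1) among neuron genes. These percentiles set different genes side by side without correction for gene length, so they cannot settle the tissue. In bulk tissue, fewer cells of a type and less RNA per cell cannot be told apart.

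The activators of the loop had overlapping values in all groups. Arntl, the partner that gives the complex its daily rhythm, had a normalised read count of 72.4 and 84.6 in BB replicates 1 and 4, 90.4, 72.1 and 68.0 in DB replicates 1, 2 and 6, and 75.9, 78.6 and 66.3 in HE replicates 2, 3 and 4. The highest value was in DB replicate 1 and the lowest in HE replicate 4, and the groups overlapped in every comparison. Group means were 78.5 ± 8.58 (SD, n = 2) in BB, 76.8 ± 11.9 (SD, n = 3) in DB and 73.6 ± 6.46 (SD, n = 3) in HE. Clock, the DNA-binding partner of BMAL1, had 164 and 191 in BB replicates 1 and 4, 174, 192 and 164 in DB replicates 1, 2 and 6, and 191, 180.1 and 194 in HE replicates 2, 3 and 4. The highest of the 8 values was 1.18 times the lowest, and every group held a value near 191. For DB against HE the log2 fold change was 0.053 for Arntl (95% interval −0.25 to 0.35) and −0.093 for Clock (95% interval −0.33 to 0.14), on the log2(value + 1) scale used throughout. For BB against DB it was 0.037 for Arntl (95% interval −0.30 to 0.37). In the GRCr8 annotation Clock, Per2, Cry1 and Cry2 also overlap genes known only by a locus number, and reads of such overlaps cannot be told apart without the strand.

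**Figure D1:**
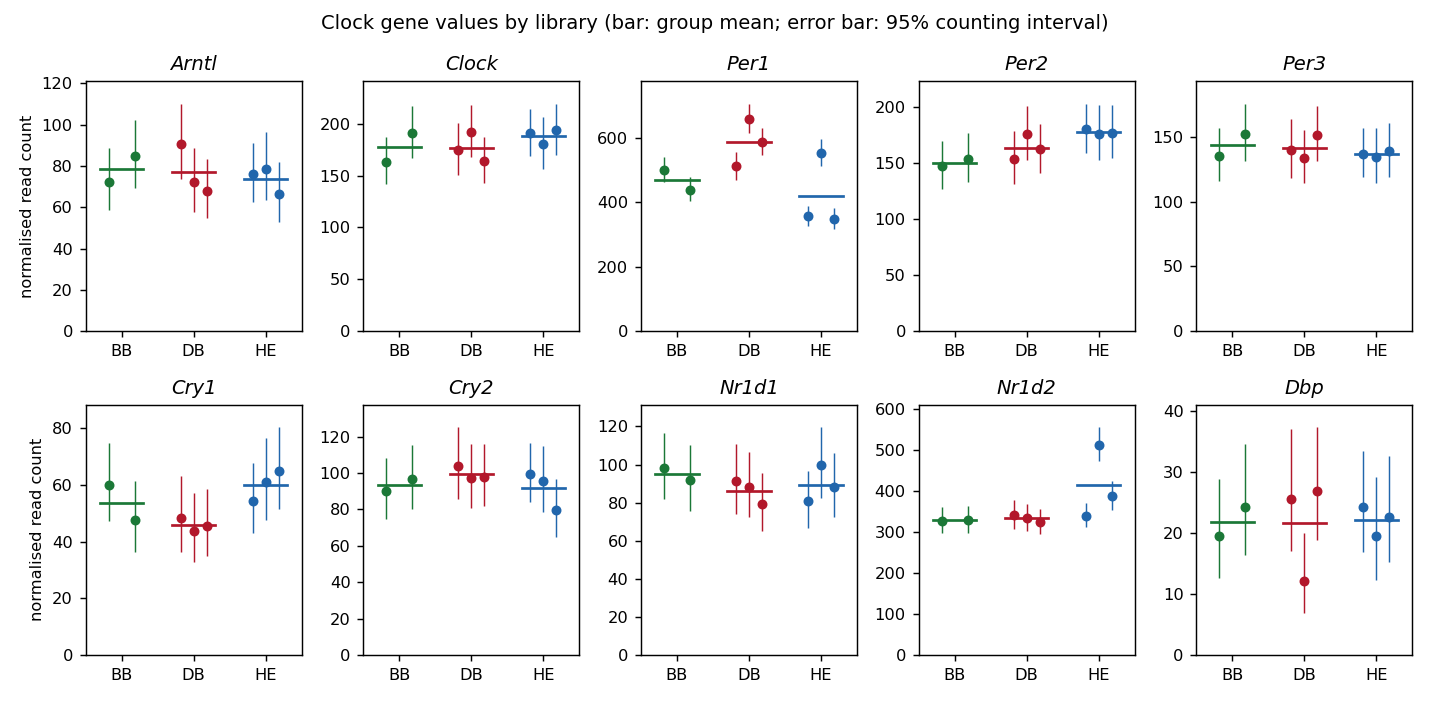
Normalised read count (y axis) of the 10 clock genes in each library of the BB, DB and HE groups (x axis), without BB replicate 8, where each point is a library, its error bar the 95% counting interval and the horizontal bar the group mean. Per1 in HE replicate 3 (553) and Nr1d2 in HE replicate 3 (512) lie above the other HE libraries, while for most other genes the counting intervals of the groups overlap.

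Of the period genes, which encode the repressors that block CLOCK and BMAL1, Per1 varied most between libraries. It had 499.9 and 439 in BB replicates 1 and 4, 512, 659 and 587 in DB replicates 1, 2 and 6, and 357, 553 and 348 in HE replicates 2, 3 and 4. The DB libraries were high, HE replicates 2 and 4 were low, and HE replicate 3 lay within the DB range, so the DB and HE groups overlapped. Per1 averaged 586 ± 73.4 in DB and 419 ± 116 in HE (SD, n = 3 each), a log2 fold change of 0.51 (SE 0.15, 95% interval 0.19 to 0.83), and did not pass (adjusted p = 0.173 in limma). Without HE replicate 3 it was 0.72, which passes (adjusted p = 0.00223 in limma). Over all other settings tried, the adjusted p was at least 0.139. The call thus rests on that library. Between BB and DB, Per1 had a log2 fold change of −0.31 (95% interval −0.67 to 0.042, adjusted p = 0.998 in limma), and both BB values were below all 3 DB values.

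Per2 and Per3 stayed within narrow ranges. Per2 had 147.2 and 153.8 in BB replicates 1 and 4, 153.4, 175.7 and 162.2 in DB replicates 1, 2 and 6, and 180.0, 175.9 and 177.2 in HE replicates 2, 3 and 4. All 3 HE values were above those of both other groups, though HE replicate 3 and DB replicate 2 were nearly equal. The log2 fold change was −0.12 for DB against HE (95% interval −0.35 to 0.11) and −0.24 for BB against HE (95% interval −0.49 to 0.015), and neither passed (adjusted p in limma = 0.819 and 0.761). Per3, the period gene with the least part in keeping time in mice, had 135 and 152 in BB replicates 1 and 4, 139.7, 134 and 152 in DB replicates 1, 2 and 6, and 137, 134 and 139 in HE replicates 2, 3 and 4. It was the steadiest member, with a highest value 1.14 times the lowest and groups that overlapped throughout.

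The cryptochromes, partners of the PER proteins, were the next pair of repressors. Cry1 had 60.0 and 47.5 in BB replicates 1 and 4, 48.4, 43.7 and 45.6 in DB replicates 1, 2 and 6, and 54.4, 60.9 and 64.8 in HE replicates 2, 3 and 4. The DB values lay below all HE values, while BB replicate 4 lay within the DB range and BB replicate 1 within the HE range. Cry1 averaged 45.9 ± 2.35 in DB and 60.0 ± 5.24 in HE (SD, n = 3 each), a log2 fold change of −0.38 (SE 0.15, 95% interval −0.69 to −0.061) with an unadjusted p of 0.0220 that was 0.408 after adjustment in limma. It rests on 53 to 83 reads per library. Cry2 had 90.3 and 96.6 in BB replicates 1 and 4, 104, 97.2 and 97.9 in DB replicates 1, 2 and 6, and 99.4, 95.5 and 79.6 in HE replicates 2, 3 and 4. Apart from HE replicate 4, the lowest, its values lay close together, and the log2 fold change for DB against HE was 0.13 (95% interval −0.13 to 0.39).

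Both REV-ERB genes had their highest value in HE replicate 3. Nr1d1 had 98.1 and 91.8 in BB replicates 1 and 4, 91.3, 88.3 and 79.2 in DB replicates 1, 2 and 6, and 80.6, 99.8 and 88.2 in HE replicates 2, 3 and 4. Both BB values were above the DB values, by little over DB replicate 1, and the HE values spread over both groups. Its log2 fold change was 0.14 for BB against DB (95% interval −0.16 to 0.44) and −0.050 for DB against HE (95% interval −0.32 to 0.22). In the GRCr8 annotation Nr1d1 overlaps the 3′ end of Thra, the thyroid hormone receptor gene on the other strand. The strand setting of the counting is unknown, and reads of Nr1d1 and Thra cannot be told apart there. Nr1d2 had 328 and 329 in BB replicates 1 and 4, 341, 334 and 325 in DB replicates 1, 2 and 6, and 339.9, 512 and 388 in HE replicates 2, 3 and 4. The 5 BB and DB libraries agreed to within 1.05 times, HE replicate 2 lay within their range, and HE replicate 3 stood above all others. The log2 fold change was −0.29 for DB against HE (SE 0.13, unadjusted p = 0.0377, adjusted p = 0.491 in limma) and −0.31 for BB against HE (SE 0.14, unadjusted p = 0.0455, adjusted p = 0.725 in limma). Without HE replicate 3 these were −0.12 and −0.14, and the adjusted p in limma was 0.848 and 0.920.

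Dbp, the D-box activator of the output arm, had 19.5 and 24.2 in BB replicates 1 and 4, 25.6, 12.1 and 26.9 in DB replicates 1, 2 and 6, and 24.2, 19.4 and 22.6 in HE replicates 2, 3 and 4. DB replicate 2 was the lowest of the 8 libraries, with 15 reads, and DB replicate 6 the highest, with 36. The group means were 21.8 ± 3.32 (SD, n = 2) in BB, 21.5 ± 8.16 (SD, n = 3) in DB and 22.1 ± 2.41 (SD, n = 3) in HE. It had 15 to 36 reads per library, and the log2 fold change for DB against HE was −0.11 (95% interval −0.67 to 0.46). As a ratio the interval ran from 0.628 to 1.37, so it includes no difference and excludes neither a lower nor a higher level in DB.

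Set together, 8 of the 10 genes varied over the 8 libraries by an amount within 3 percentage points of that from counting reads alone. The same share over all genes was not computed, so this describes the members and is not a trait particular to them. The coefficient of variation of Arntl was 10.8%, against 10.2% from counting alone, and that of Per3 was 5.30%, against 7.52% from counting alone. The other 2 genes were Per1, at 22.0%, against 4.02% from counting alone, and Nr1d2, at 17.6%, against 4.69% from counting alone. These are the members with the most reads, and each had its highest HE value in HE replicate 3, though Per1 was higher in DB replicates 2 and 6. The ratio of the highest to the lowest library had a median of 1.34 over the 10 genes, beside 1.55 over the 23036 genes with at least 10 reads in each of the 8 libraries, and ranged from 1.14 (Per3) to 2.22 (Dbp). The members and these other genes were not matched for read number, and counting error alone widens this ratio in genes with few reads. Counting intervals cover counting error only.

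**Figure D2:**
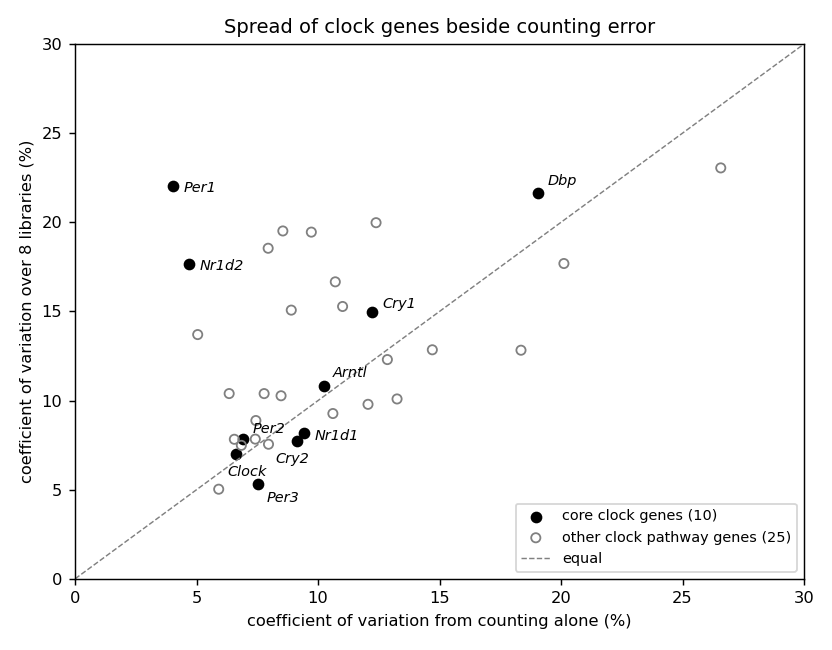
Coefficient of variation over 8 libraries in percent (y axis) and the part expected from counting alone in percent (x axis) for the 10 core clock genes (filled) and 25 other clock pathway genes (open), with a dashed line where both are equal. Per1 (22.0%) and Nr1d2 (17.6%) lie well above the line and the other 8 core genes lie near it.

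Between DB and HE, 0 of the 10 core clock genes passed at an adjusted p of 0.05 in limma, where 0.677% of the 32371 genes tested did. At an unadjusted p under 0.05 there were 3 (Per1, Cry1 and Nr1d2), where 9.43% of all genes did, and the same 3 came from edgeR while DESeq2 had 1, Per1. Neither tool called any at the adjusted threshold. The DB and HE values did not overlap for 2 members, Per2 and Cry1, both lower in DB. Over all genes 14.1% did not overlap, 6.82% with DB higher and 7.25% with DB lower. The median log2 fold change of the 10 genes was −0.071, and 4 of them were positive. Over all genes the median was 0.0053, with 50.9% above 0. The median size without sign was 0.11 for the 10 genes, beside 0.17 over all genes, which were not matched to them for read number. Some markers of hepatocytes differed between the same libraries. Of 12, 2 were lower in DB with no overlap (Alb and Tf), 1 was higher (Cyp2e1) and 9 overlapped. The 12 genes summed to 1376, 1396 and 1374 in DB replicates 1, 2 and 6, against 1662, 2158 and 1751 in HE replicates 2, 3 and 4, with all 12 above 0 in each of the 8 libraries. Albumin (Alb) made up 263, 251 and 283 of the DB sums, against 486, 738 and 541 of the HE sums. Transferrin (Tf) had 327, 303 and 308 in DB, against 425, 470.1 and 422 in HE, and the cytochrome gene Cyp2e1 had 73.0, 59.9 and 67.3 in DB, against 47.0, 57.5 and 41.4 in HE. The highest sum of the list was in HE replicate 3, which also had the highest Per1 and Nr1d2 values among the HE libraries. Per1 was higher still in DB replicates 2 and 6 (659 and 587), whose sums were lower. The part of these markers in the clock gene values was not tested. The 12 adipocyte markers summed to 836, 946 and 813 in DB, against 846, 939 and 836 in HE. The macrophage and lymphocyte markers summed to 1401, 1703 and 1453 in DB, against 1622, 1722 and 1750 in HE. In BB replicates 1 and 4 they summed to 1421 and 1337, below all HE sums. Within that list Cd68 and Cd3g were lower in BB than in HE with no overlap, Ptprc was higher, and the rest overlapped.

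**Figure D3:**
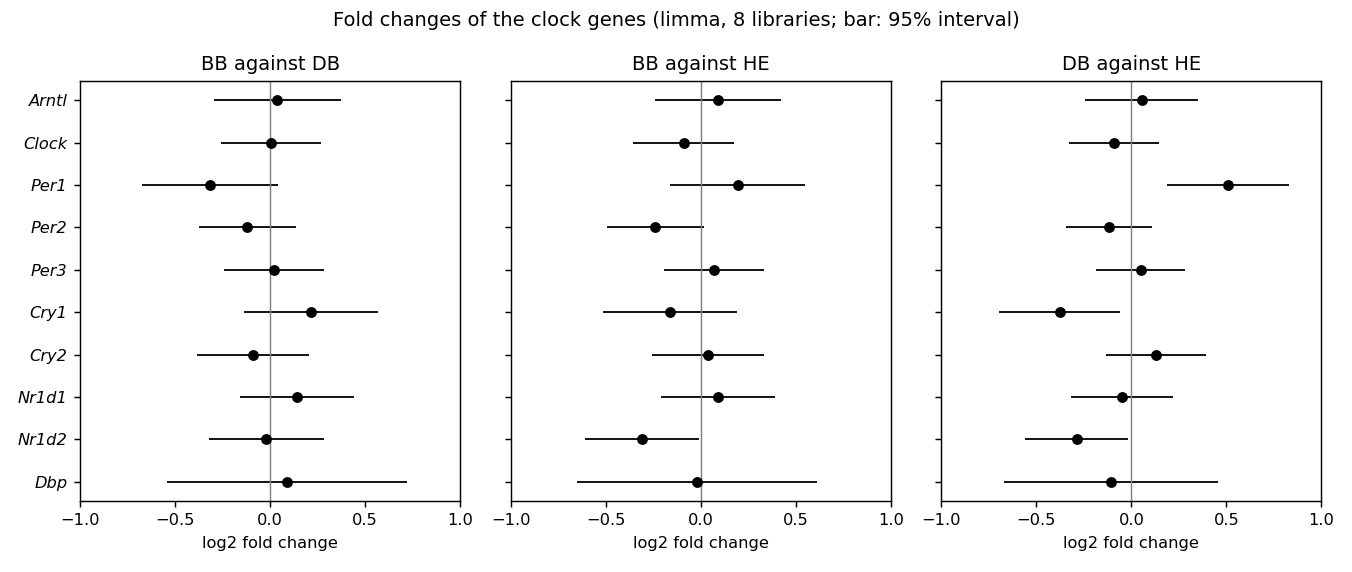
Log2 fold change (x axis) of the 10 clock genes (rows) for BB against DB, BB against HE and DB against HE, from limma on 8 libraries, with bars for the 95% interval. The interval excludes 0 for Per1 (0.51), Cry1 (−0.38) and Nr1d2 (−0.29) in DB against HE and for Nr1d2 (−0.31) in BB against HE, and none of these passed after adjustment.

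Between BB and DB, the comparison that bears on the extract, no core clock gene passed in limma, edgeR or DESeq2, and none had an unadjusted p under 0.05 in any of these tools. Per1 had an unadjusted p of 0.0228 in limma with only the BB and DB libraries, 0.0187 without HE replicate 3 and 0.0444 without DB replicate 1, with adjusted p of 0.909 or more. Of all 32371 genes, 0% passed in limma and 4.95% had an unadjusted p under 0.05. The groups did not overlap for 3 members, Per1 and Cry2 lower and Nr1d1 higher in BB, while over all genes 19.6% did not overlap, 9.04% with BB higher and 10.5% with BB lower. Cry2 was nearly equal in BB replicate 4 (96.6) and DB replicate 2 (97.2), with 120 reads in each. The log2 fold changes ranged from −0.31 (Per1) to 0.21 (Cry1), with a median of 0.012 and 6 above 0. Cry1 was at 0.050 without BB replicate 1 and 0.38 without BB replicate 4. Of all genes 49.4% were above 0. For Clock the 95% interval ran from −0.26 to 0.27 and for Per3 from −0.24 to 0.28. Both intervals include 0, and with 2 BB libraries changes of the sizes they span are not excluded. Between BB and HE, again no member passed in limma, where 0.192% of all genes did. At an unadjusted p under 0.05 there was 1 member in limma (Nr1d2, where 6.86% of all genes were), 0 in edgeR and 0 in DESeq2, which called none either at the adjusted threshold. The groups did not overlap for 2 members, Per2 and Nr1d2, both lower in BB. Over all genes 22.1% did not overlap, 10.3% with BB higher and 11.9% with BB lower. The 10 genes had a median log2 fold change of 0.0082 and 5 were above 0, beside 49.9% of all genes. The hepatocyte markers summed to 1734 and 1745 in BB replicates 1 and 4, above all DB sums. Of these sums Alb made up 438 and 501 and Tf 389 and 410. Other markers of the list, Serpina1 and Tat among them, overlapped between BB and DB. The part of the hepatocyte markers in these comparisons was not tested. The 3 comparisons share libraries, so their fold changes are not independent. In the order of their means the neighbouring groups did not differ past the threshold for any of the 10 genes.

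The balance of the loop's arms was described in each library as the mean log2(value + 1) of Per1, Per2, Per3, Nr1d1, Nr1d2 and Dbp minus that of Arntl and Clock, which moves with the hour in a running clock. It was 0.32 and 0.14 in BB replicates 1 and 4. In DB replicates 1, 2 and 6 it was 0.20, 0.19 and 0.48, against 0.16, 0.37 and 0.28 in HE replicates 2, 3 and 4. The groups overlapped, with means of 0.23 ± 0.13 (SD, n = 2) in BB, 0.29 ± 0.16 (SD, n = 3) in DB and 0.27 ± 0.11 (SD, n = 3) in HE, and the 8 libraries ran from 0.14 to 0.48.

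Pairs of members were compared from library to library within the same 8 libraries of all 3 groups. Over the 8 libraries Arntl and Nr1d1, whose product represses Arntl, had r = 0.36 (exact permutation p = 0.384) and rho = 0.55 (exact permutation p = 0.171), and without the 2 libraries farthest from the median of Arntl r was 0.42. Arntl and Per2 had r = −0.40 (exact permutation p = 0.318) and rho = −0.36 (exact permutation p = 0.389), and r turned to 0.18 without the 2 farthest libraries. Within the same arm, Dbp and Per3 had r = 0.64 (exact permutation p = 0.0817) and rho = 0.81 (exact permutation p = 0.0218), with r of 0.62 without the 2 farthest. Of the 9 pairs computed, none passed after Benjamini-Hochberg adjustment over the pairs, and the lowest adjusted p was 0.735 for r and 0.196 for rho, both for Dbp with Per3. Within the 6 DB and HE libraries that pair had r = 0.67 (exact permutation p = 0.171) and rho = 0.94 (exact permutation p = 0.0167). Nr1d1 and Nr1d2 had r = 0.50 (exact permutation p = 0.238) and rho = 0.29 (exact permutation p = 0.501) over the 8 libraries. Within the 6 DB and HE libraries they had r = 0.80 (exact permutation p = 0.0444) and rho = 0.71 (exact permutation p = 0.136), and r was 0.15 without the 2 farthest. None of the 9 pairs passed after adjustment in these 6 libraries either, where the lowest adjusted p was 0.400 for r and 0.150 for rho. All tests were two-sided. Arntl, a member of most of the pairs, had a coefficient of variation of 10.8%, against 10.2% from counting alone. Correlations of values that vary so little beyond counting cannot decide whether the genes move together.

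Among 23035 other genes with at least 10 reads in each library, those whose log2 values followed Arntl most closely over the 8 libraries were Capn6 (r = 0.96), Rab23 (0.96), Rbm6 (0.94), AABR07068248.1 (0.93) and Gin1 (0.92). For Dbp they were Alpk1 (r = 0.97), AABR07003380.1 (0.96), AABR07038625.1 (0.96), Coro2b (0.94) and Taf2 (0.94). No other core clock gene was among either set, and the closest member to Arntl was Cry2 (r = 0.66). These are the highest of many values over few libraries that share their depth and factors, and are given as a description. Arntl and Dbp also varied over these libraries by little more than counting reads alone gives.

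The wider clock pathway was read from 26 genes, all of them in the tables. None passed the test in any of the 3 comparisons in limma, edgeR or DESeq2. Between DB and HE, 3 of the 26 had an unadjusted p under 0.05 in limma, all lower in DB, beside 9.43% of all genes, while edgeR gave 4 (of 25 tested) and DESeq2 3. Of the 26, 10 were above 0, and their median was −0.042. Cipc, an inhibitor of CLOCK, had 75.5 and 70.1 in BB replicates 1 and 4, 72.1, 78.5 and 65.8 in DB replicates 1, 2 and 6, and 110.2, 94.7 and 101 in HE replicates 2, 3 and 4. All 3 HE values lay above every BB and DB value. Its log2 fold change was −0.49 for DB against HE (SE 0.13, 95% interval −0.76 to −0.22, adjusted p = 0.0956 in limma) and −0.48 for BB against HE (SE 0.14, 95% interval −0.78 to −0.18, adjusted p = 0.398 in limma). Npas2, a paralog that can stand in for CLOCK, had 278 and 299.6 in BB replicates 1 and 4, 311, 258 and 282 in DB replicates 1, 2 and 6, and 355, 387 and 323 in HE replicates 2, 3 and 4. Its values in HE were above the others, with the highest in HE replicate 3, and the log2 fold change was −0.32 for DB against HE (adjusted p = 0.294 in limma) and −0.29 for BB against HE (adjusted p = 0.687 in limma). Csnk1e, the casein kinase that marks PER proteins for breakdown, had 100.4 and 98.2 in BB replicates 1 and 4, 72.1, 87.4 and 99.4 in DB replicates 1, 2 and 6, and 123, 105 and 109 in HE replicates 2, 3 and 4. The DB values were the most spread, and the log2 fold change for DB against HE was −0.38 (adjusted p = 0.284 in limma). Btrc, a ubiquitin ligase subunit for PER proteins, had a log2 fold change of −0.22 in the same comparison (95% interval −0.44 to 0.00024, adjusted p = 0.531 in limma).

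Between BB and HE, 3 of the 26 genes had an unadjusted p under 0.05 in limma, Cipc and Npas2 lower and Usp2 higher in BB, beside 6.86% of all genes. There edgeR gave 3 and DESeq2 1. Usp2, a rhythmic deubiquitinase, had 121.5 and 157.8 in BB replicates 1 and 4, 114.1, 165.2 and 124.8 in DB replicates 1, 2 and 6, and 100.1, 120.9 and 105.4 in HE replicates 2, 3 and 4. Both BB values were above the highest HE value, BB replicate 1 by less than 1, the DB values overlapped them, and the log2 fold change for BB against HE was 0.35 (95% interval 0.011 to 0.69, adjusted p = 0.720 in limma). Arntl2, the paralog of Arntl, had a log2 fold change of −0.32 for BB against HE and −0.28 for BB against DB. Between BB and DB none of them had an unadjusted p under 0.05 in limma, edgeR or DESeq2, and the 4 with the smallest p were Wee1, a cell cycle kinase under clock control, at 0.21 (95% interval −0.079 to 0.50), Arntl2, Csnk1e at 0.21 and Btrc at 0.13, each with an adjusted p of 0.998 in limma. The groups did not overlap for 5 of the 26 genes between DB and HE (all lower in DB), 2 between BB and DB (both higher in BB) and 8 between BB and HE (2 higher and 6 lower in BB). The shares over all genes were 14.1%, 19.6% and 22.1%.

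**Figure D4:**
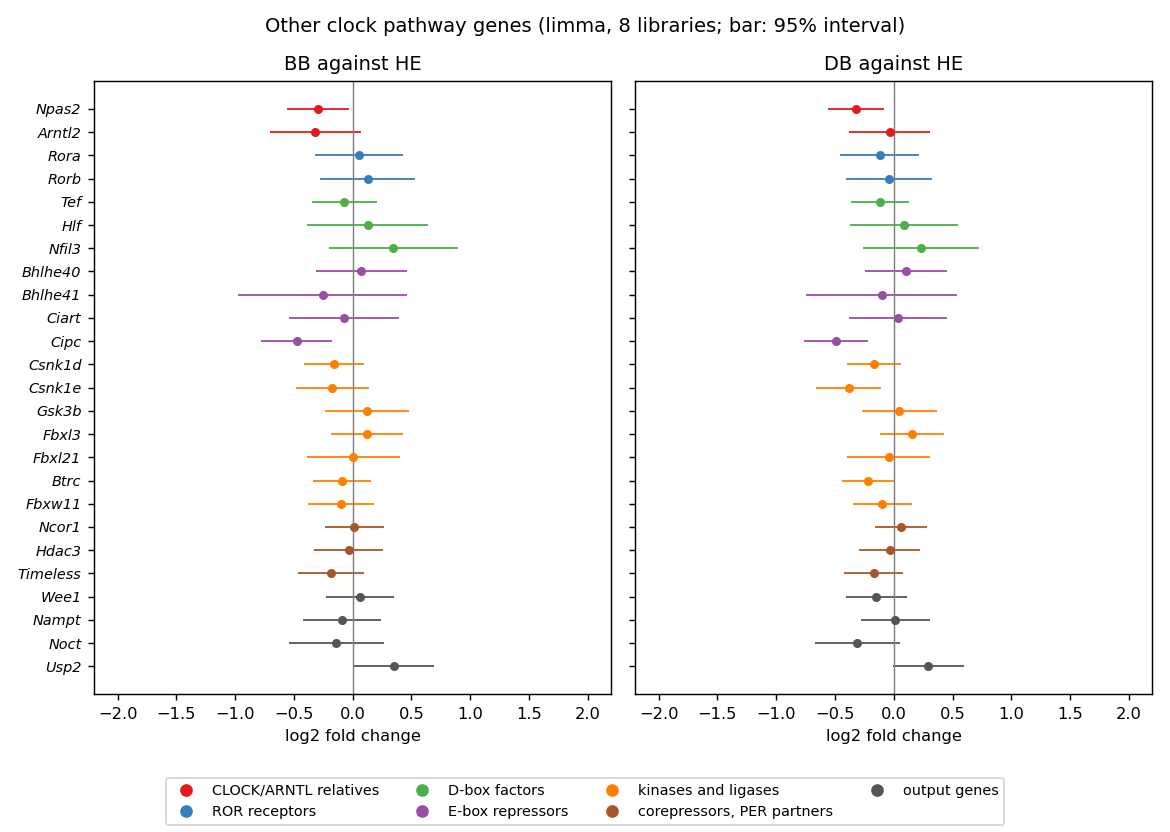
Log2 fold change (x axis) of 25 other clock pathway genes (rows, coloured by role) for BB against HE and DB against HE, from limma on 8 libraries, with bars for the 95% interval. The intervals of Cipc lie below 0 in both, at −0.48 in BB against HE and −0.49 in DB against HE, and most intervals of other genes include 0.

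In BB replicate 8 the clock genes had values far from those of the other libraries, and for 4 of the 10 the direction turns with the scaling. Per1 had 132846 (9078 reads), ranking 72nd of all genes by reads in it, while it had 348 to 659 in the other 8 libraries. Nr1d1 had 409.7 (28 reads), beside 79.2 to 99.8 in the others, Per3 had 278 (19 reads), beside 134 to 152, and Dbp had 219.5 (15 reads), beside 12.1 to 26.9. On the deposited scale the 95% counting interval of these 4 genes lay above the other libraries, at 130127 to 135607 for Per1, 272 to 592 for Nr1d1, 167 to 434 for Per3 and 123 to 362 for Dbp. Nr1d2 was lower, at 161 (11 reads) with an interval of 80.4 to 288, beside 325 to 512. Arntl had 14.6 (1 read), Clock 102 (7 reads), Per2 58.5 (4 reads), Cry1 117 (8 reads) and Cry2 73.2 (5 reads), and the intervals of these 5 reached into the range of the other libraries. As RPM, reads scaled to the library total, a scale chosen after the values were seen, Per1 was again higher in BB replicate 8, at 740.0, beside 147 to 254 in the other 8 libraries, while the other 9 genes were lower. Nr1d1 was at 2.28, beside 31.4 to 40.7, Per3 at 1.55, beside 51.3 to 63.7 and Dbp at 1.22, beside 4.68 to 10.7. The direction relative to the other libraries thus turns for Nr1d1, Per3, Dbp and Cry1, and in the deposited values 1 read of BB replicate 8 stands for 14.6. The share of all genes outside the range of the other libraries was not computed on either scale. These counts thus describe the members and are not a trait particular to them. With BB replicate 8 in the fit, the log2 fold change of Per1 between BB and DB was 2.40 (adjusted p = 0.530 in limma), in place of −0.31, and that of Dbp between BB and HE was 1.07 in place of −0.020. In that fit 0 members passed in any comparison and 0 had an unadjusted p under 0.05 in limma.

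**Figure D5:**
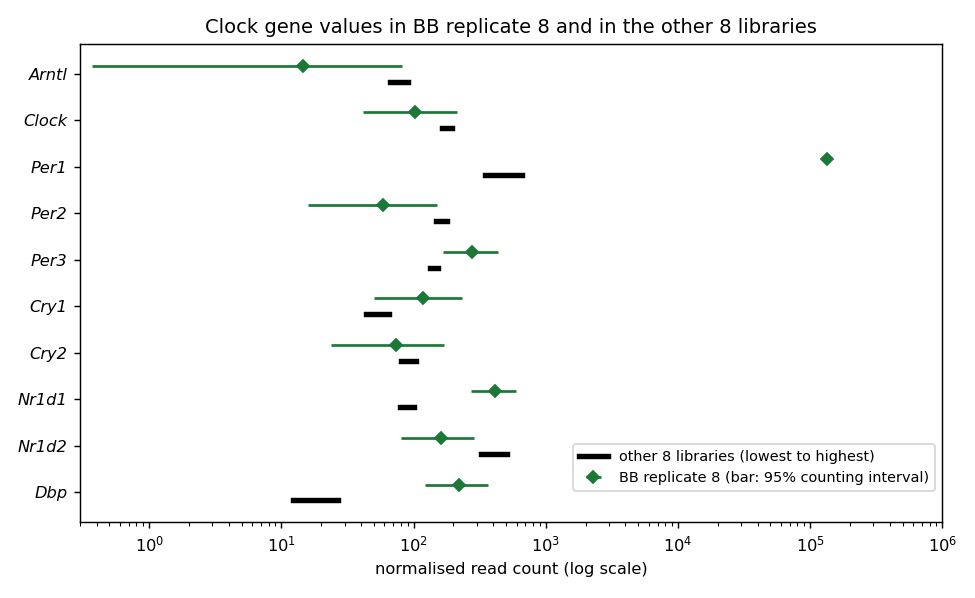
Normalised read count on a log axis (x axis) of the 10 clock genes (rows) in BB replicate 8 (diamonds, with the 95% counting interval) and from the lowest to the highest of the other 8 libraries (black bars). On this deposited scale Per1 in BB replicate 8 lies at 132846, far right of its other values (348 to 659), and Arntl lies at 14.6, left of its own (66.3 to 90.4).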

How the data were processed

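Libraries of adipose tissue RNA from BB, DB and HE rats were sequenced, 3 per group. The titles number the rats, and no other source states separate animals, so the tests measure variation between libraries, which can be technical. The deposited values are a normalised signal per gene, made by the authors from read counts divided by 1 factor per library. Undoing that factor gave whole reads (100% within 0.1 reads). Which aligner, counter and annotation made them is not given in the sources used here. Builds listed in the submitters' processing notes are GRCm38 and mm10, both of mouse, although gene names are of rat. Columns were matched to samples by group code and rat number.

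Values on the log2(value + 1) scale were tested by limma 3.58.1 (trend, 1 model of 8 libraries, 5 residual degrees of freedom), keeping genes whose average reached 1 in some group, and p-values were adjusted by Benjamini-Hochberg over all of them (threshold 0.05, intervals 95%). This scale understates differences of low genes. Alternatives were edgeR 4.0.16 and DESeq2 1.42.0 on the recovered reads, other scalings, filters, pseudocounts and sets of libraries, and leaving out each library in turn. Correlations had exact permutation p-values (scipy 1.17.1, numpy 2.4.6). Scripts were tested on simulated data. The 10 genes, the lists and the tests were chosen with earlier results of these data known. All 10 are named, with the pathway genes of the 4 smallest p per comparison and the 5 genes most like Arntl and Dbp. The E-box variant and flanking genes were chosen after seeing their matches or values. Counts over the pathway list include 1 gene whose values are not reported here.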

Additional observations from a re-analysis of the deposited data

Results flagged for a closer look

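BB replicate 8 was left out of the comparisons, and 4 clock genes in it had values whose 95% counting interval lay above the highest HE value on the deposited scale, in which 1 of its reads stands for 14.6. Per1 had 132846, against 553 in the highest HE library, Nr1d1 had 409.7, against 99.8, Per3 had 278, against 139, and Dbp had 219.5, against 24.2. As RPM, reads scaled to the library total, Per1 was higher too (740.0 in BB replicate 8, against 211 in the highest HE library), while Nr1d1 (2.28 against 38.1), Per3 (1.55 against 58.7) and Dbp (1.22 against 10.2) were lower. They come from 1 library, the differences were not tested, and the same count over all genes was not made.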

How the results depend on the processing

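Under 20 alternatives, 563 of 600 log2 fold changes of the 10 clock genes kept their direction and stayed on the same side of the threshold, 36 changed sign and 1 passed the threshold (Per1 between DB and HE without HE replicate 3). No paired analysis was made, because the study's methods divide the rats at random into groups and a shared replicate number marks no pair.

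With all 9 libraries the signs turned between BB and DB for Arntl (−0.74), Clock (−0.26) and Per1 (2.40), and between BB and HE for Arntl (−0.69), Cry1 (0.21), Cry2 (−0.080) and Dbp (1.07), through the values of BB replicate 8. With total-count scaling they turned for Arntl (−0.00081) and Per3 (−0.0063) between DB and HE, Nr1d2 between BB and DB (0.066) and Dbp between BB and HE (0.010). That scaling moved the median of all genes to −0.047, 0.079 and 0.029 in DB against HE, BB against DB and BB against HE. Leaving out 1 library at a time gave, between DB and HE, −0.068 to 0.13 for Arntl, 0.39 to 0.72 for Per1, −0.0018 to 0.089 for Per3, −0.12 to 0.030 for Nr1d1 and −0.30 to 0.24 for Dbp, between BB and DB, −0.073 to 0.16 for Arntl, −0.11 to 0.11 for Clock, −0.062 to 0.10 for Per3, 0.050 to 0.38 for Cry1 and −0.26 to 0.28 for Dbp, and between BB and HE, −0.020 to 0.20 for Arntl, −0.20 to 0.021 for Clock, −0.014 to 0.15 for Per3, −0.33 to 0.0021 for Cry1, −0.060 to 0.098 for Cry2 and −0.17 to 0.13 for Dbp. Where it left 1 BB library, that library was assumed to vary like the other groups.

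Of all genes, 219 passed between DB and HE in limma, 0 with all 9 libraries, 1 with no filter, 333 with total-count scaling (100 higher and 233 lower in DB, in place of 108 and 111) and 59 to 420 when 1 library was left out, with 59, 79, 85, 124 and 420 without HE replicate 4, DB replicate 1, DB replicate 6, HE replicate 2 and HE replicate 3. Between BB and DB 0 passed, with 1603 at an unadjusted p under 0.05, while 5 passed with only the 2 groups compared, 1 with edgeR, 2 with DESeq2, 1 with a pseudocount of 5, 2 with total-count scaling, 1 each with TMM scaling, DESeq2 size factors and identical rows kept once, and 0 to 19 when 1 library was left out (19 without BB replicate 1 and 8 without HE replicate 3). Between BB and HE 62 passed (0 with all 9 libraries, 0 with no filter, and 26 to 76 when 1 library was left out, with 26, 31 and 41 without HE replicate 4, BB replicate 4 and HE replicate 2). Of the clock genes 0 to 1 passed between DB and HE when 1 library was left out, and 0 passed under every other setting and comparison. The cause of these moves was not tested, and leaving out a library changes both their number and which ones remain. Within the 6 DB and HE libraries the correlation of Arntl turned to −0.30 with Per3 and to −0.19 with Clock. With TMM scaling the rho of Dbp with Per3 was 0.90, with an adjusted exact permutation p of 0.0411, which passes, while its r did not. As RPM, chosen after seeing the data, the log2 ratio of BB replicate 8 to the highest HE library was 1.81 for Per1 in place of 7.91, and turned to −5.24 for Per3, −4.06 for Nr1d1 and −3.05 for Dbp. The arm difference moved by less than the spread between libraries with a pseudocount of 0.1. TMM and total-count scaling could hardly move it, because a factor shared by all genes of a library nearly cancels in it. Those 2 settings are therefore no test of it.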

Other observations

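In BB replicate 8 the genes on either side of Per1, Nr1d1, Dbp and Per3 in the GRCr8 annotation were read on the deposited scale, and were chosen after their values were seen. Beside Per1, Vamp2 had 14.6 (1 read), beside 52.0 to 74.6 in the other 8 libraries, and Hes7 had 58.5 (4 reads), beside 27.5 to 39.6. Beside Nr1d1, Thra had 58.5 (4 reads), beside 82.6 to 139.7, and Msl1 had 132 (9 reads), beside 45.6 to 59.2. Beside Dbp, Car11 had 0 (0 reads), beside 70.1 to 103, and Sphk2 had 0 (0 reads), beside 38.9 to 67.0. Beside Per3, Uts2 had 14.6 (1 read), beside 8.73 to 17.1, and Vamp3 had 14.6 (1 read), beside 14.6 to 35.4. Each of these genes had 9 reads or fewer in BB replicate 8, and no more reads there than in any other library, while Per1 had 9078.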
